A study of Homo sapiens with 5 samples.

Results

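The genes followed here are 37 proliferation genes of established use as markers of dividing cells: 14 genes expressed around S phase and 23 genes of G2 and mitosis. They were chosen by name, with earlier results of these data known. Each was measured as the sum of the reads of all its transcripts in the GENCODE v44 annotation. They were 37 of 61220 genes with a transcript in the tables, and all 37 were among the 13492 genes with enough reads to test (at least 10 reads in at least 2 libraries). The 37 genes had 308 annotated transcripts in the tables, of which 230 received reads, 38708 reads in all.

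Genes needed for DNA synthesis are switched on by E2F transcription factors as a cell passes from G1 into S phase. They encode the replicative helicase and its loaders, the polymerase clamp and the enzymes that supply deoxynucleotides. Genes of G2 and mitosis are held down by the DREAM complex in resting cells and switched on later by B-MYB and FOXM1. Their products drive entry into mitosis, build the spindle, attach chromosomes to it and then destroy cyclins so that the cell can divide. In tumour RNA both groups are read as proliferation signatures, often as 1 score.

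RNA of NCI-H1975 and HCC827, which are established human lung adenocarcinoma cell lines, was combined by mass in 5 ratios and sequenced as PCR-amplified cDNA on a nanopore instrument. Each ratio had 1 library, named by its percent of NCI-H1975 and then of HCC827: the pure libraries are 100:0 and 0:100, and the mixed ones 75:25, 50:50 and 25:75. No drug or other treatment is named in the labels. The labels' protocols describe cultures grown to near confluence and 1 RNA preparation per line, and both RNAs were to carry synthetic spike-in transcripts (sequins mix A in NCI-H1975, mix B in HCC827). Scatter along the series therefore covers mixing, library preparation and counting, and not differences between cultures. In bulk RNA of this kind, fewer cycling cells and less RNA per cycling cell cannot be told apart.

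The libraries held 2932250 to 4058751 assigned reads. The 0:100 library had no sequin reads although its label names mix B, while the other 4 libraries had 5475, 4678, 2830 and 1269 in mixture order. Sequin reads thus declined at each step toward HCC827, along with the share of NCI-H1975 RNA. Measures of RNA and composition ran with the series: the mitochondrial share of reads went from 5.65% to 8.85% and the read-weighted mean transcript length from 2581 to 2180 bases. Among epithelial and lung adenocarcinoma markers 7 of 8 (87.5%) rose toward HCC827, against 23.5% of all tested genes. By library totals alone, with no further scaling, 6 rose (75.0%) and 1 fell (12.5%), against 13.4 and 37.7% of all tested genes. The leukocyte markers PTPRC, CD3E, MS4A1, LYZ and TYROBP and the fibroblast marker DCN had 0 reads in all 5 libraries, while the collagen gene COL1A1 went from 532 reads to 19. The T and B cell markers summed to 4 to 27 reads per library, the endothelial markers to 6 to 17, the myeloid markers to 202 to 309, and the fibroblast markers declined from 632 to 20. The part of these shifts in the results below was not tested, except where values with the length trend removed are given.

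Levels are given as CPM, reads of a gene relative to the library's total after TMM, a scaling that sets aside extreme genes, always in the order 100:0 to 0:100. Change along the series is given as the slope, the fitted log2 change from no HCC827 RNA to HCC827 RNA alone, with its SE, from the edgeR quasi-likelihood test with Benjamini-Hochberg adjustment over all 13492 genes. A gene is said to have risen or fallen where the adjusted p was under 0.05. Folds between the pure libraries carry no test, and their 95% exact binomial intervals cover counting error only.

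Promoters of an S-phase pair and a mitotic pair show the sequence elements described for these groups, with 1 gene in each pair that rose and 1 that fell toward HCC827. Each sequence is the 250 bases before the transcription start in RefSeq on GRCh38.p14, read 5′ to 3′ on the gene's strand. Where RefSeq gives several starts the most upstream is shown. MCM7, a helicase subunit, lies at chr7:100101398-100101647 on the minus strand, and PCNA, the polymerase clamp, at chr20:5126623-5126872 on the minus strand. CDC20, the activator of the anaphase-promoting complex, lies at chr1:43358731-43358980 on the plus strand, and MKI67, which encodes Ki-67, at chr10:128126424-128126673 on the minus strand. Capitals mark the E2F motif (TTCCCGC or TTCGCGC or TTGGCGC or TTGCCGC), the CCAAT box (CCAAT) and the cell-cycle homology element (CHR, TTTGAA), each on either strand.
MCM7: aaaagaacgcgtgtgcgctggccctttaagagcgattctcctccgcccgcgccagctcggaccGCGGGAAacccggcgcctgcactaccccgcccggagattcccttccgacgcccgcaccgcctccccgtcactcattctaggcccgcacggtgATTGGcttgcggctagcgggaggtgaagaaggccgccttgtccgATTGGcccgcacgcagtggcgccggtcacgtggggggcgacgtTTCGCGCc
PCNA: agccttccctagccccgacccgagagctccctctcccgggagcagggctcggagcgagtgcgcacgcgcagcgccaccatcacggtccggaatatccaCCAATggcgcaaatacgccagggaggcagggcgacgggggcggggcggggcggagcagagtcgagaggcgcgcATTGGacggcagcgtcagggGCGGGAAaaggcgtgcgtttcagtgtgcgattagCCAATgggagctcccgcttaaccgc
CDC20: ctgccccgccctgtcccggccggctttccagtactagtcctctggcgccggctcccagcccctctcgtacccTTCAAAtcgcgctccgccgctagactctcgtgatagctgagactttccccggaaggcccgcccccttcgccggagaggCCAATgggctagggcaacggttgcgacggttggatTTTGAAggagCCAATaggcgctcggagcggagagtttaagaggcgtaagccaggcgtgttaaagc
MKI67: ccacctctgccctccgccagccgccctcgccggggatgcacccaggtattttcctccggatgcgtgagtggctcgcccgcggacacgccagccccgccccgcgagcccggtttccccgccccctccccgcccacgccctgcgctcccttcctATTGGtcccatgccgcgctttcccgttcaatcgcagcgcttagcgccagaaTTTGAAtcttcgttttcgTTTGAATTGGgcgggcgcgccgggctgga
The S-phase pair held E2F motifs and CCAAT boxes but no CHR, whereas the mitotic pair held CHR elements and CCAAT boxes but no E2F motif. In CDC20 a CHR ended 60 bases before the start, with a CCAAT box ending 51 bases before it. In MKI67 the CHR nearest the start overlapped a reversed CCAAT box by its last base.

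Counts over the groups ran the same way. Of the S-phase genes, 12 had a promoter in the table, and of these 10 (83.3%) held an E2F motif, 10 (83.3%) a CCAAT box and 1 (8.33%), RRM1, a CHR. Of the mitotic genes, 19 had a promoter, and of these 11 (57.9%) held a CHR, 17 (89.5%) a CCAAT box and 4 (21.1%) an E2F motif. Among the 27305 genes with a promoter in the table the shares were 16.1% for the CHR, 37.0% for the CCAAT box and 13.0% for the E2F motif. Among the 10168 tested genes with a promoter they were 11.8%, 41.6% and 21.5%. A match to these letters is a description and not a binding site.

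The S-phase genes split in both directions. Of 14 genes, 3 rose (TK1, MCM7 and MCM2) and 3 fell (RRM2, MCM4 and PCNA), a share of 42.9% against the 45.8% of all tested genes that passed the test, so the count lay near the background. Their slopes ran from -0.76 to 0.81 with a median of 0.21, against -0.035 for all tested genes. With TMM scaling none of the 14 differed by as much as 2-fold between the pure libraries.

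The replicative helicase, the MCM2 to MCM7 ring that unwinds DNA at the fork, did not move as a unit. MCM7 stood at 66.0, 57.3, 69.1, 85.7 and 98.2 CPM. It was highest in the 25:75 and 0:100 libraries and lowest in the 75:25 library. The 0:100 level was 1.49 times the 100:0 level (interval 1.24 to 1.79), and the slope was 0.70 ± 0.17 (SE, edgeR adjusted p = 0.00448). MCM2 climbed in order through 40.4, 43.4, 45.5, 50.4 and 58.4 CPM, though by library totals alone its values were not in order. Its fold was 1.45 (1.14 to 1.83) and its slope 0.51 ± 0.16 (edgeR adjusted p = 0.0210), and the locus is shared with ENSG00000285600. MCM4 took the opposite course, at 79.3, 77.4, 77.8, 54.9 and 47.6 CPM. The first 3 libraries were nearly level and the last 2 lay below them. Its 100:0 level was 1.67 times the 0:100 level (1.34 to 2.07), with a slope of -0.75 ± 0.18 (edgeR adjusted p = 0.00430). Without the 0:100 library none of the 3 passed, at slopes of 0.56 for MCM7, 0.41 for MCM2 and -0.58 for MCM4, and MCM2 did not pass without the 100:0 library (0.58) or with DESeq2 (0.53).

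The remaining helicase subunits and loaders did not pass the test. MCM5 had a slope of 0.48 ± 0.22 (edgeR adjusted p = 0.0961), MCM6 one of 0.26 ± 0.22 (adjusted p = 0.366) and MCM3 one of 0.18 ± 0.21 (adjusted p = 0.503). CDC6, which loads the ring onto origins, stood between 14.5 and 18.1 CPM in every library (slope -0.19 ± 0.27), and GINS2, a subunit of the complex that activates it, between 20.0 and 24.6 CPM (0.23 ± 0.23). By library totals alone, a scaling under which the median slope of all genes moved to -0.44, MCM2 had a slope of 0.11, MCM7 of 0.29, MCM3 of -0.22 and MCM6 of -0.15, none past the threshold, while MCM4 was at -1.16 and still fell. MCM7 shares its locus with AP4M1 on the other strand, and whether counting used strand is not given in the sources used here.

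A ratio of 2 genes within a library does not depend on scaling. These pairs were chosen with values known, so the ratios are a description, and only their change along the series is read. There were 0.833 MCM7 reads per MCM4 read in the 100:0 library (Wilson interval 0.698 to 0.994) and 2.06 (1.67 to 2.55) in the 0:100 library. The ratios of MCM2, MCM3, MCM5 and MCM6 to MCM4 were likewise higher at the HCC827 end, for example 0.509 against 1.23 for MCM2. All 5 ratios to MCM4 were therefore higher in HCC827 than in NCI-H1975.

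PCNA, the sliding clamp that holds DNA polymerase on its template, declined in order from 72.2 through 66.5, 66.0 and 53.9 to 47.3 CPM. The fold was 1.53 in favour of the 100:0 library (1.23 to 1.91) and the slope -0.60 ± 0.16 (edgeR adjusted p = 0.00758). Without the 0:100 library the slope was -0.50 and did not pass.

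Enzymes of nucleotide supply also parted. RRM2, the cell-cycle-regulated subunit of ribonucleotide reductase, stood at 90.8, 69.1, 59.1, 60.9 and 51.0 CPM. The 100:0 library lay above all others. Its level there was 1.78 times the 0:100 level (1.45 to 2.19), with a slope of -0.76 ± 0.16 (edgeR adjusted p = 0.00207), and without the 100:0 library it was -0.50 and did not pass. TK1 (chromosome 17, 78174091 to 78187233 on GRCh38), the salvage enzyme thymidine kinase, moved the other way, with 64.9, 80.9, 93.5, 93.1 and 122 CPM. The 50:50 and 25:75 libraries were level and the pure libraries lay at either end. Its fold was 1.88 toward HCC827 (1.58 to 2.24) and its slope 0.81 ± 0.14 (edgeR adjusted p = 0.000577), the steepest rise among the S-phase genes.

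RRM1, the large reductase subunit, went from 77.2 to 62.1 CPM without passing the test (slope -0.27 ± 0.14, edgeR adjusted p = 0.138). Reads of RRM2 per read of RRM1 were 1.18 (0.997 to 1.39) at the NCI-H1975 end and 0.820 (0.655 to 1.03) at the HCC827 end, with overlapping intervals. TYMS, thymidylate synthase, makes thymidylate anew rather than by salvage, and it stayed between 26.5 and 31.8 CPM (slope -0.25 ± 0.21, edgeR adjusted p = 0.354). By library totals alone RRM1 (-0.69) and TYMS (-0.66) fell. The ratio of TK1 to TYMS reads went from 2.16 to 4.56. E2F1, a transcription factor that drives this group, stood at 22.4, 21.1, 21.3, 24.1 and 29.8 CPM, with the highest value in the 0:100 library and no call (0.41 ± 0.24, edgeR adjusted p = 0.170).

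**Figure D1:**
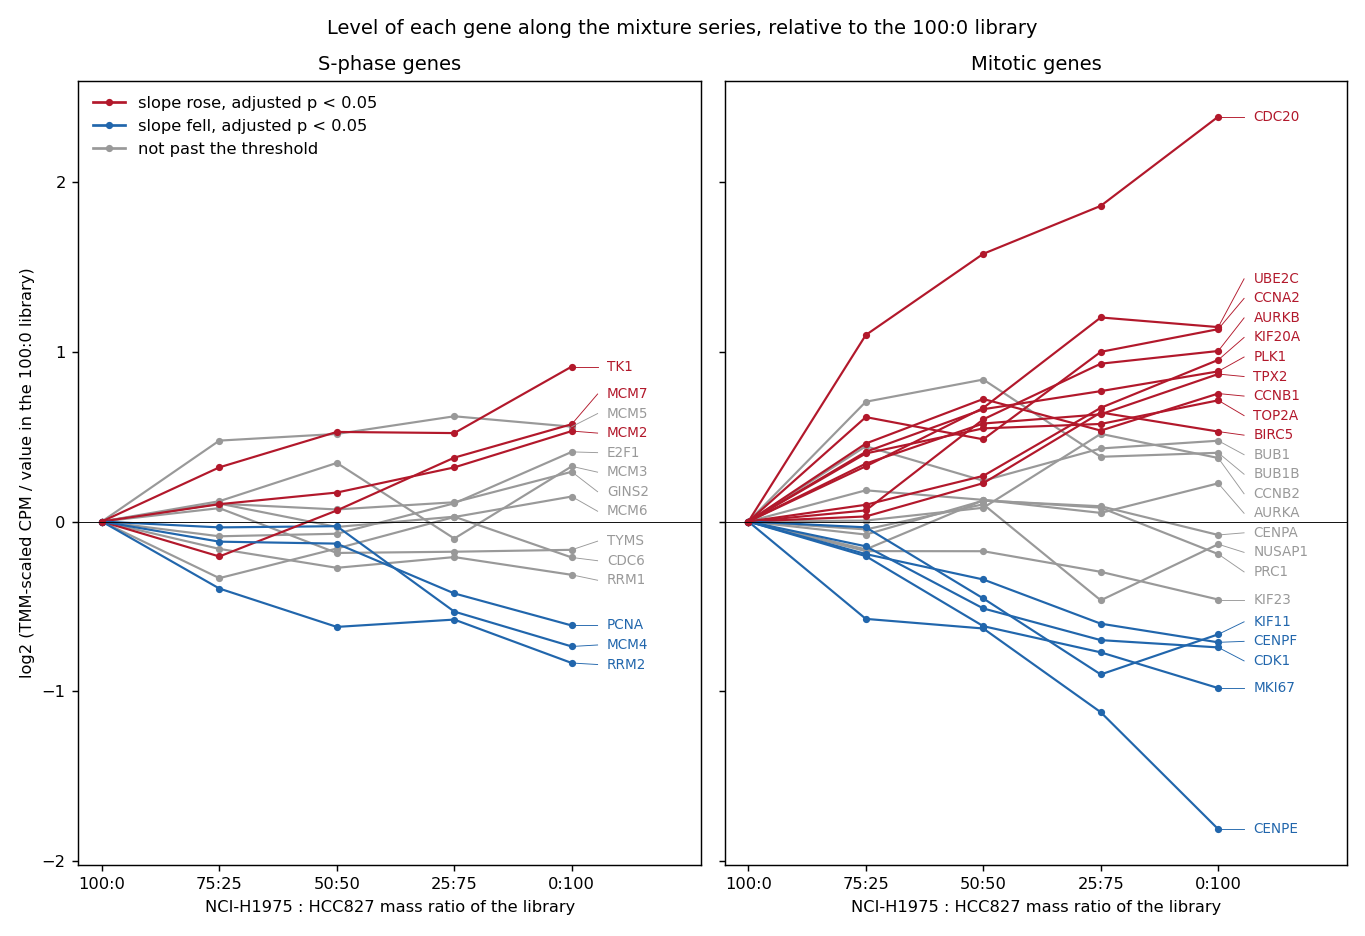
Log2 of each gene's TMM-scaled CPM over its value in the 100:0 library, against the NCI-H1975 to HCC827 mass ratio, with S-phase and mitotic genes in separate panels and 1 point per library. Red lines rose, blue lines fell and grey lines did not pass the edgeR threshold of 0.05; CDC20 climbs from 53.1 to 277 CPM and CENPE declines from 36.6 to 10.4 CPM, while every S-phase line ends less than 2-fold from its start.

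The mitotic genes also split in both directions. Of 23 genes, 15 (65.2%) passed the test, 10 rising and 5 falling. Rises were 43.5% of the group against 23.5% of all tested genes, and falls 21.7% against 22.3%. By library totals alone 5 rose (21.7%) and 7 fell (30.4%), against 13.4 and 37.7% of all tested genes under that scaling. The group was chosen with earlier results of these data known, and among 60 other mitotic genes 21.7% rose and 15.0% fell. The 5 libraries lay in strict order of the mixture for 11 of the 23 (6 upward and 5 downward), or 47.8%, and for 2 of the 14 S-phase genes, or 14.3%. Over all tested genes 28.5% did so. These orders are of TMM-scaled values. By library totals alone CDC20 and the 5 downward genes kept their order, while TOP2A, TPX2, PLK1, AURKB and KIF20A did not. The mitotic slopes ran from -1.59 to 2.12 with a median of 0.35. Depth bears on such counts: the genes had a median of 641 reads over the 5 libraries, and the S-phase genes 769, against 351 for all tested genes.

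Among the regulators that carry cells into mitosis, the cyclins and their kinase moved apart. CCNA2, cyclin A2, stood at 11.2, 17.2, 15.7, 22.4 and 24.6 CPM. The 100:0 value was the lowest and the 0:100 value the highest. The fold was 2.19 (1.45 to 3.36) and the slope 1.02 ± 0.28 (edgeR adjusted p = 0.00911). CCNA2 overlaps EXOSC9 on the other strand. CCNB1, cyclin B1, rose from 87.9 CPM through 121, 145 and 127 to 148 CPM (slope 0.61 ± 0.17, edgeR adjusted p = 0.0113), and its relative CCNB2 had a slope of 0.51 ± 0.20 just outside the threshold (adjusted p = 0.0502). CCNA2 did not pass without the 100:0 library (0.82), without the 0:100 library (1.09) or by library totals (0.61), nor did CCNB1 without the 100:0 library (0.29) or by library totals (0.21).

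CDK1, the kinase these cyclins activate, fell in order through 45.4, 41.0, 31.8, 28.0 and 27.2 CPM. Its 100:0 level was 1.67 times the 0:100 level (1.26 to 2.24), with a slope of -0.83 ± 0.19 (edgeR adjusted p = 0.00361). CCNB1 reads per CDK1 read went from 1.94 (1.59 to 2.35) to 5.45 (4.25 to 6.99). PLK1, the kinase that promotes entry and later steps of mitosis, rose in order from 54.3 to 100 CPM (0.83 ± 0.15, edgeR adjusted p = 0.000710). Transcripts of these partners therefore changed in opposite directions along the same series.

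The 2 steepest rises among the 37 genes were those of CDC20 and UBE2C, partners of the anaphase-promoting complex, the ubiquitin ligase that ends mitosis. CDC20 (ENSG00000117399.14, chromosome 1, 43358981 to 43363203), the activator of that complex and the target of the spindle checkpoint, had 180, 490, 616, 550 and 744 reads, or 53.1, 114, 158, 192 and 277 CPM. Each step toward HCC827 was upward, and the 75:25 library already held more than the 100:0 library by a wide margin. The fold was 5.22 (4.43 to 6.17) and the slope 2.12 ± 0.20 (edgeR adjusted p = 6.41e-06), which lay at percentile 96.5 of all tested slopes. UBE2C, the ubiquitin-conjugating enzyme of the same complex, had 52.2, 65.4, 83.0, 120 and 115 CPM. The 25:75 and 0:100 libraries were level, above the other 3. Its fold was 2.21 (1.83 to 2.67) and its slope 1.27 ± 0.17 (edgeR adjusted p = 6.11e-05).

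The checkpoint kinases that hold CDC20 in check did not pass the test. BUB1 ran between 17.4 and 24.2 CPM (slope 0.35 ± 0.25, edgeR adjusted p = 0.277) and BUB1B, which encodes BubR1, between 12.1 and 21.6 CPM with its peak in the 50:50 library (0.15 ± 0.35, adjusted p = 0.752). CDC20 reads per BUB1B read went from 4.39 to 17.3, and CDC20 reads per CCNB1 read from 0.604 (0.502 to 0.727) to 1.87 (1.66 to 2.11).

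The chromosomal passenger complex corrects faulty attachments and guides cell division, and both of its subunits among the 37 genes rose. Its subunits INCENP and CDCA8 were counted in the list of other mitotic genes, and their values are not given here. No course of the whole complex is therefore read from AURKB and BIRC5. AURKB, its kinase, stood at 36.6, 38.3, 55.5, 69.6 and 73.3 CPM. The first 2 libraries were close, and the other 3 lay above them in order. The fold was 2.01 (1.59 to 2.53) and the slope 1.15 ± 0.18 (edgeR adjusted p = 0.000213). BIRC5, which encodes survivin, rose from 53.4 CPM to 77.0 CPM with its highest value, 83.3 CPM, in the 25:75 library (0.68 ± 0.17, edgeR adjusted p = 0.00501). By library totals its slope of 0.27 did not pass.

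AURKA, the related kinase of spindle poles, did not follow AURKB. Its values stayed between 55.7 and 65.1 CPM (slope 0.12 ± 0.16, edgeR adjusted p = 0.551). AURKB reads per AURKA read went from 0.656 to 1.13. TPX2, which activates AURKA on the spindle, rose in order from 151 to 275 CPM (0.81 ± 0.13, edgeR adjusted p = 0.000221).

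Of the centromere and kinetochore genes, CENPE and CENPF fell and CENPA did not pass the test. CENPE (chromosome 4, 103105349 to 103198445), a kinetochore motor that aligns chromosomes, had 124, 106, 92, 48 and 28 reads, or 36.6, 24.6, 23.6, 16.8 and 10.4 CPM. Every step was downward, and the pure libraries were 3.51-fold apart (2.31 to 5.49). The slope of -1.59 ± 0.26 (edgeR adjusted p = 0.000313) was the steepest fall among the 37. CENPF, a large kinetochore protein, fell in order from 119 to 72.9 CPM (-0.73 ± 0.13, edgeR adjusted p = 0.000541). CENPA, the histone H3 variant that marks centromeres, stayed between 19.0 and 21.8 CPM (0.02 ± 0.25, edgeR adjusted p = 0.958). Its locus overlaps SLC35F6 on the same strand, with 1433 reads against 347 for CENPA, and how reads there were assigned was not tested. Loci of other members also overlap neighbours with more reads, as NUSAP1 does OIP5-AS1, GINS2 does GSE1 and TYMS does ENOSF1.

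Spindle motors and midzone proteins gave a mixed picture. KIF11, the motor that pushes spindle poles apart, had 18.3, 17.9, 13.4, 9.80 and 11.5 CPM. The 2 libraries richest in NCI-H1975 were highest. Its fold was 1.58 (1.01 to 2.52) with a slope of -0.90 ± 0.30 (edgeR adjusted p = 0.0280), a call that rested on 28 to 77 reads per library. It was lost with DESeq2 (-0.87) and without the 100:0 (-1.01), 75:25 (-0.82) or 25:75 (-0.74) library. KIF20A, a motor of the midzone and cleavage furrow, rose in order from 13.9 to 26.8 CPM (1.01 ± 0.25, edgeR adjusted p = 0.00571). Its locus overlaps those of BRD8 and CDC23, and how reads there were assigned was not tested. Its slope did not pass without the 0:100 library (0.89) or by library totals (0.60).

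KIF23, another midzone motor, went from 34.8 to 25.3 CPM without a call (-0.41 ± 0.20, edgeR adjusted p = 0.111). The microtubule bundlers PRC1 (28.7 to 35.7 CPM, slope -0.03 ± 0.22) and NUSAP1 (23.1 to 34.2 CPM, slope -0.26 ± 0.23) did not pass either. Reads of KIF20A per read of KIF11 went from 0.758 to 2.32 across the series.

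The most used marker of proliferation, MKI67, and the marker most often read beside it, TOP2A, moved in opposite directions. MKI67 (chromosome 10, 128096659 to 128126423) had 259, 286, 194, 128 and 104 reads, or 76.4, 66.3, 49.8, 44.8 and 38.7 CPM. Every step was downward, with the 100:0 level 1.97 times the 0:100 level (1.57 to 2.50) and a slope of -1.03 ± 0.16 (edgeR adjusted p = 0.000221). TOP2A, the topoisomerase that untangles sister chromosomes, rose in order through 227, 299, 332, 338 and 372 CPM (0.63 ± 0.14, edgeR adjusted p = 0.00217), although by library totals its slope of 0.22 did not pass. TOP2A reads per MKI67 read were 2.97 (2.58 to 3.42) in the 100:0 library and 9.61 (7.85 to 11.8) in the 0:100 library.

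**Figure D2:**
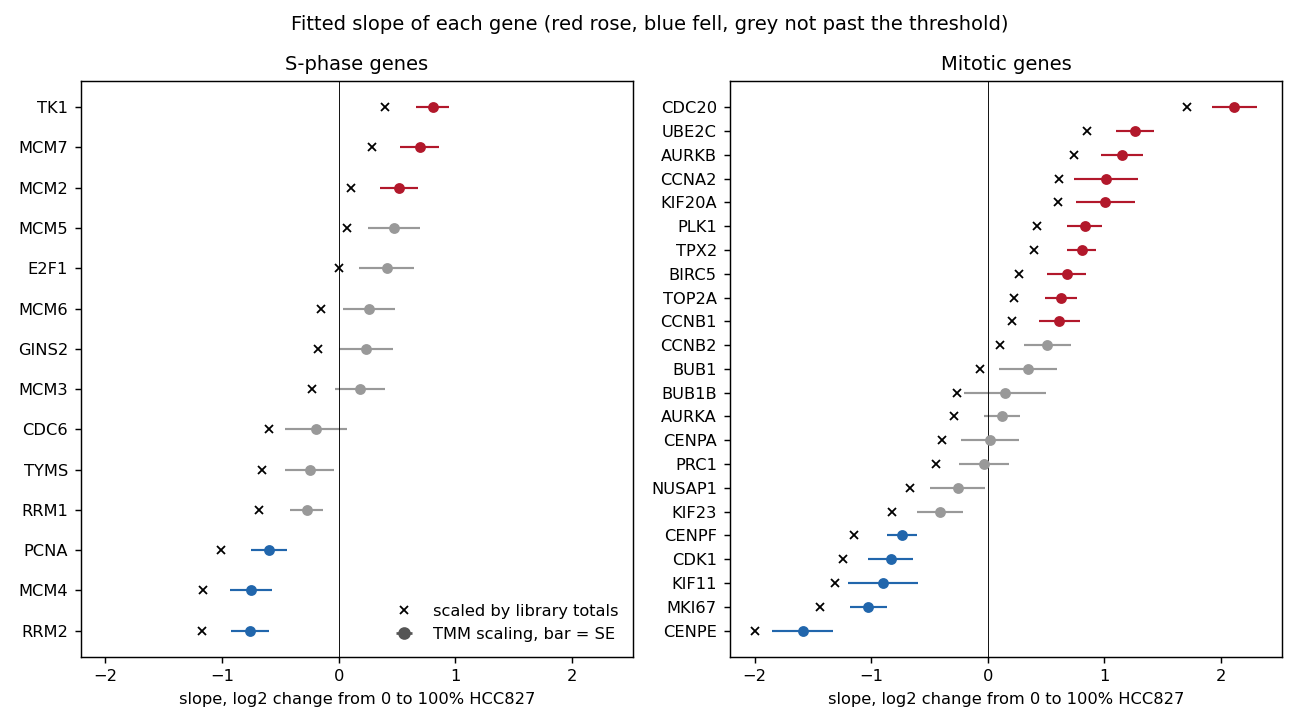
Slope of each of the 37 genes (log2 change from 0 to 100% HCC827) with a bar for its SE, in red where it rose, blue where it fell and grey where it did not pass, and a cross for the slope by library totals alone. CDC20 (2.12) and CENPE (-1.59) stand at the ends, both directions occur in each group, and every cross lies to the left of its point.

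**Figure D3:**
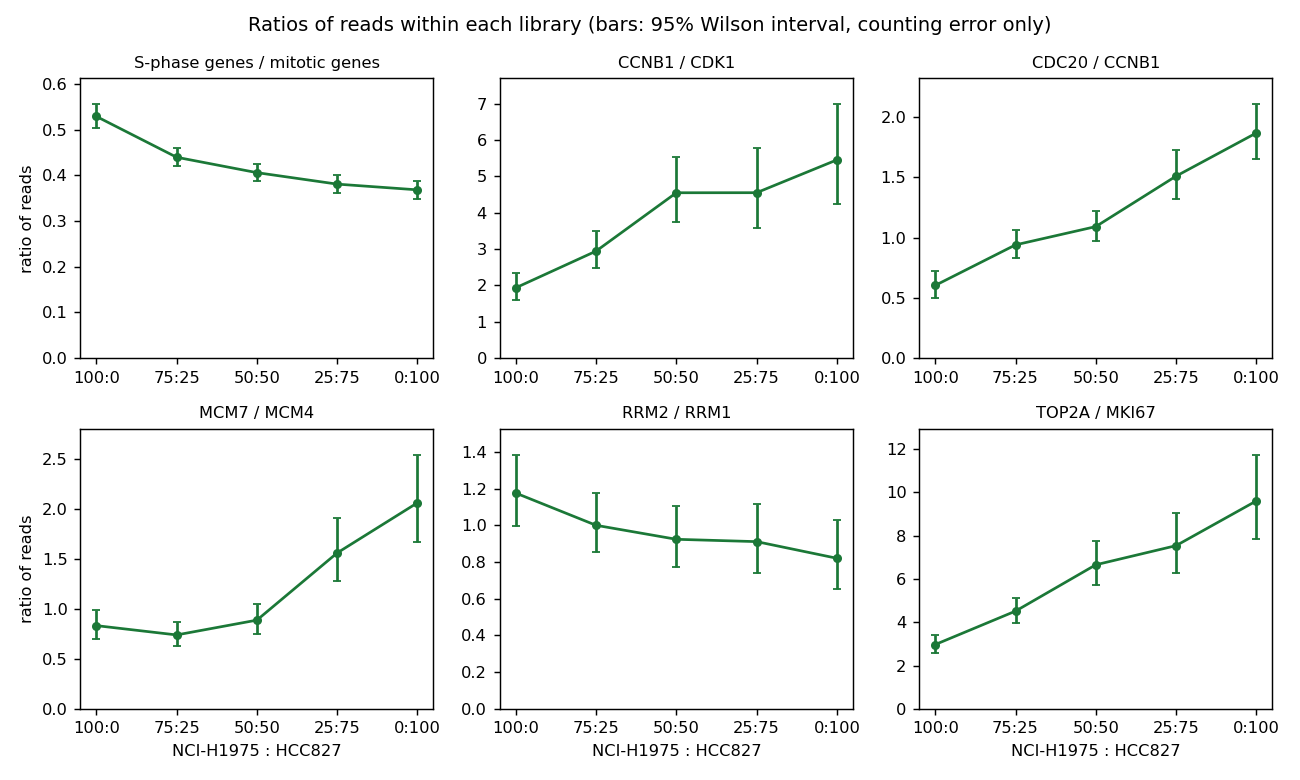
Reads of one gene or group per read of another in each of the 5 libraries, on linear axes that start at 0, with 95% Wilson intervals for counting error. The ratio of S-phase to mitotic reads goes from 0.529 to 0.368, that of CCNB1 to CDK1 from 1.94 to 5.45 and that of TOP2A to MKI67 from 2.97 to 9.61, while the end intervals of RRM2 to RRM1 overlap.

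Transcript length ran with the direction of change across all genes. Tested genes shorter than 1000 bases (the mean length of their transcripts, weighted by reads) had a median slope of 0.39, and the 1591 genes of 6000 bases or more had one of -0.36, with 32.1% falling and 10.9% rising. The 3 mitotic genes in that longest class, MKI67 (11888 bases), CENPF (9989 bases) and CENPE (8413 bases), all fell. With each library's trend on length removed, MKI67 had a slope of -0.59 (edgeR adjusted p = 0.00989) and CENPE one of -1.24 (adjusted p = 0.00163), and both still fell. CENPF, at -0.33 (adjusted p = 0.0553), and KIF11, at -0.70 (adjusted p = 0.0804), no longer passed.

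Other genes were affected in different ways. TOP2A, at 5434 bases, rose, with a slope of 0.87 once the trend was removed. The shorter genes CDK1 and PCNA fell, at -0.99 and -0.82 without the trend. Short genes that rose had smaller slopes without the trend, though all still passed: UBE2C went from 1.27 to 0.95, AURKB from 1.15 to 0.92, TK1 from 0.81 to 0.60, CCNB1 from 0.61 to 0.45 and CDC20 from 2.12 to 1.96. In all, with the trend removed, 3 S-phase genes rose (21.4%) and 3 fell (21.4%). Of the mitotic genes 10 rose (43.5%) and 3 fell (13.0%). Over all tested genes the shares in that setting were 23.3 and 21.1%, so the S-phase counts lay near the background.

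**Figure D4:**
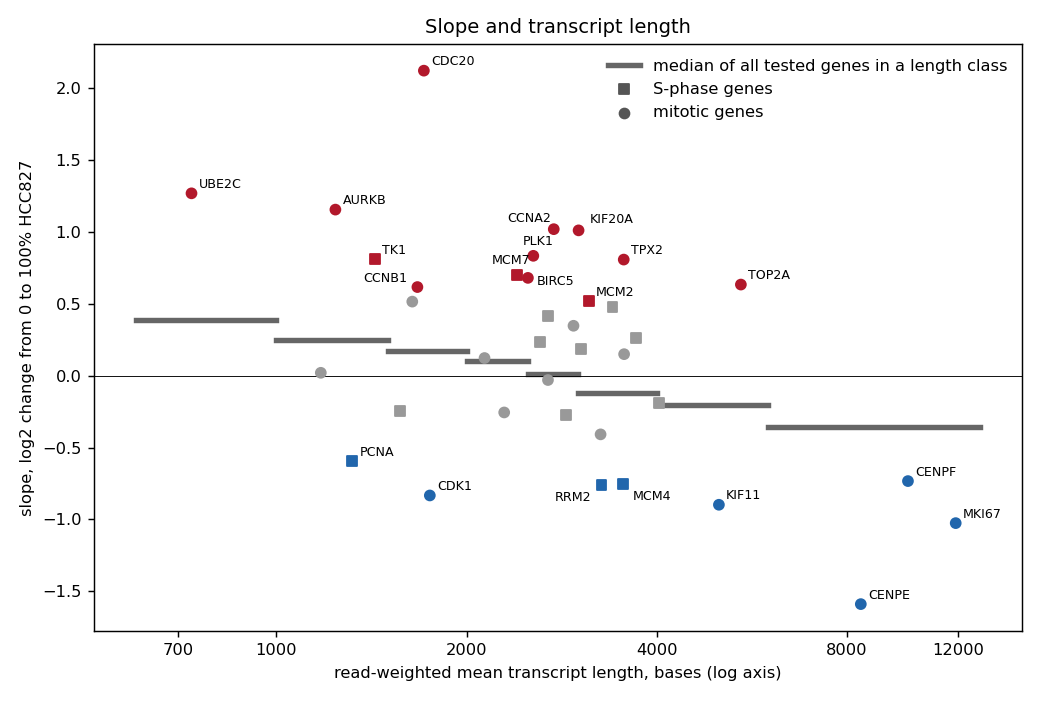
Slope of each of the 37 genes (log2 change from 0 to 100% HCC827) against its read-weighted mean transcript length in bases (log axis), with squares for S-phase genes, circles for mitotic genes, red for rises, blue for falls and grey for no call. Grey bars give the median slope of all tested genes per length class and go from 0.39 to -0.36; MKI67, CENPF and CENPE lie at the long end below 0, and TOP2A lies above its bar.

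Summed over the group with TMM scaling, S-phase reads were level while mitotic reads climbed. The 14 S-phase genes together had 673, 655, 670, 658 and 699 CPM, and the 23 mitotic genes 1273, 1491, 1652, 1730 and 1900 CPM. The mitotic sum thus rose at each step, whereas by library totals alone it was 1476, 1586, 1659, 1608 and 1651 CPM. Sums weight the genes with most reads: without CDC20 the mitotic sum went from 1220 to 1623 CPM, and without the 3 genes of 6000 bases or more from 1041 to 1778 CPM.

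The balance between the groups needs no scaling. S-phase genes took 34.6, 30.5, 28.9, 27.6 and 26.9% of the reads of both groups together, a decline at each step toward HCC827. Without CDC20 there were 0.552, 0.476, 0.449, 0.428 and 0.431 S-phase reads per mitotic read, so the last step was then level. By library totals alone the S-phase sum went from 780 to 608 CPM and the mitotic sum from 1476 to 1651 CPM, so the S-phase sum was lower in HCC827 under one scaling and nearly level under the other. Without CDC20 the mitotic sum by library totals went from 1414 to 1410 CPM, so its ends were then level. Under that scaling 1 S-phase gene rose and 5 fell, beside 1808 rises and 5091 falls among all tested genes.

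The position of the mixed libraries between the pure ones followed the mixture in the median but not in each gene. For the 16 genes whose pure libraries differed by 1.5-fold or more on library totals, the median position of the 75:25, 50:50 and 25:75 libraries between the pure ones was 32.9, 56.7 and 80.6% of the way to HCC827. The HCC827 share of reads estimated from genes in none of the lists was 32.6, 55.4 and 78.0%. Single genes scattered widely about these medians, from -7.82 to 63.1% in the 75:25 library, from 15.9 to 75.3% in the 50:50 library and up to 128% in the 25:75 library, so some lay outside the range of the pure libraries.

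Other genes of the same processes, from 2 lists that hold none of the 37, also moved in both directions. Of 45 other replication genes tested, 15 (33.3%) passed, 8 rising (17.8%) and 7 falling (15.6%), against 45.8, 23.5 and 22.3% of all tested genes, so neither direction stood above the background. The steepest rises were CDT1, which licenses origins, from 25.4 to 268 CPM (slope 2.64 ± 0.35, edgeR adjusted p = 6.14e-05), ORC1, a subunit of the origin recognition complex (2.46 ± 0.40, adjusted p = 0.000332), and RFC3, a subunit of the loader of PCNA (1.81 ± 0.47, adjusted p = 0.00676). The steepest falls were CCNE1, cyclin E1 (-1.31 ± 0.42, adjusted p = 0.0220), UHRF1, which helps copy DNA methylation (-1.30 ± 0.29, adjusted p = 0.00276), and DBF4, the activator of the CDC7 kinase (-1.25 ± 0.27, adjusted p = 0.00228). RFC3 did not pass without the 100:0 (1.11) or 0:100 (1.71) library, nor CCNE1 without the 75:25 (-1.16) or 0:100 (-1.35) library. Among the other origin licensing genes, ORC6, a further subunit of the origin recognition complex, had no call (0.13 ± 0.18, edgeR adjusted p = 0.585), nor had CDC6.

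Of 60 other mitotic genes tested, 22 (36.7%) passed, 13 rising (21.7%) and 9 falling (15.0%), against 45.8, 23.5 and 22.3% of all tested genes, with a median slope of -0.075 against 0.35 in the 23. The steepest rises were TROAP (1.85 ± 0.24, edgeR adjusted p = 6.48e-05), a spindle-associated protein, KIF2C, which depolymerises microtubules at centromeres (1.83 ± 0.21, adjusted p = 2.61e-05), and CDCA3 (1.48 ± 0.23, adjusted p = 0.000248), a cell-division gene. The steepest falls were KIF14, a motor of cytokinesis with transcripts of 7058 bases (-1.45 ± 0.31, adjusted p = 0.00188), the kinase gene PBK (-1.16 ± 0.32, adjusted p = 0.00935) and CEP55, a midbody protein (-1.05 ± 0.27, adjusted p = 0.00700). CEP55 did not pass without the 0:100 library (-0.95). FOXM1 (0.89) and MYBL2 (0.94), which encode FOXM1 and B-MYB and are named for their function and not their rank, both rose. FOXM1 did not pass with 2 libraries against 2 (0.62). Whether either bears on the other mitotic genes was not tested. In this longer list 23 of 49 promoters (46.9%) held a CHR, and in the replication list 18 of 39 (46.2%) held an E2F motif.

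The CHR was found among mitotic genes of either direction, in 3 of the 7 that rose and have a promoter in the table and in 3 of the 5 that fell. The CCAAT box was in all 7 of the former and in 4 of the 5 latter.

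Long reads also separated the transcripts of each gene. Isoform usage could be tested in 28 of the 37 genes, and edgeR's Simes test with Benjamini-Hochberg adjustment over 7455 genes called 0 of them, against 31 genes, or 0.416%, in all. Of the 28, 2 had an unadjusted p under 0.05, and the gene-level F test also called 0. The smallest belonged to CCNB1 (edgeR adjusted p = 0.275), in which transcript CCNB1-204 took 11.1, 8.6, 6.7, 3.8 and 4.5% of the gene's reads and CCNB1-201 went from 63.4 to 73.1%. CENPA followed, with CENPA-204 at 26.5, 29.3, 23.5, 11.5 and 9.8%, and then NUSAP1, both with an edgeR adjusted p of 1.00.

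Some genes owed much of their count to transcripts not annotated as protein-coding. Over all libraries protein-coding transcripts took 46.3% of RRM1 reads, with 52.7% on transcripts annotated to nonsense-mediated decay, and 55.2% of MCM7 reads, with 44.8% on retained-intron transcripts. Over all genes 77.9% of reads were on protein-coding, 7.69% on retained-intron and 4.39% on nonsense-mediated decay transcripts. These shares moved little along the series for RRM1, between 43.0 and 47.9% protein-coding. For MCM7 the protein-coding share went from 51.8% in the 100:0 library to 58.7% in the 0:100 library. Reads divided between near-identical transcripts are uncertain at the transcript level, and gene sums do not depend on that division where the transcripts belong to the same gene. BUB1B, NUSAP1 and PRC1 overlap other protein-coding genes on the same strand, and how reads there were assigned was not tested.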

How the data were processed

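Poly(A) RNA mixtures of NCI-H1975 and HCC827 were sequenced as PCR cDNA. The deposited tables give, per transcript, an estimated count of reads made by the authors, with no scaling, and values were rounded to whole reads. Minimap2 2.24, Salmon 1.9.0 and GRCh38 are named per the submitters' processing notes; the annotation release and any use of strand are not given in the sources used here. Identifiers listed again (161) were summed. Of 227751 human transcripts 224076 matched GENCODE v44, with 98.6% of human reads. Gene sums were tested in edgeR 4.0.16 (R 4.3.3), with TMM factors, at least 10 reads in at least 2 libraries, the HCC827 mass fraction as covariate, Benjamini-Hochberg adjustment and a threshold of 0.05. The SE was taken as the absolute slope over the root of F. The biological coefficient of variation was 9.11%. Tests compare the RNA preparations, 1 per line. PCR copies count as reads. Motifs were searched in RefSeq promoters (GRCh38.p14). Members, lists and pairs were chosen with earlier results of these data known. All 37 members are named. Full values were given to at most 4 called members per list and direction by slope, to 3 per direction in other lists, and to the 3 members with the smallest Simes p. Tests were checked on simulated data.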

Additional observations from a re-analysis of the deposited data

How the results depend on the processing

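None of the 21 called members changed direction in the 15 alternatives run for each, and CDC20, AURKB, UBE2C, CENPE and MKI67 passed in all of them. MCM2 and KIF11 were lost most often, in 6 each. With 2 libraries against 2, the calls were 1 S-phase, 7 mitotic, 3 other replication, 9 other mitotic and 2 cell-cycle brake genes, and 2291 of all genes. Leaving out each library gave 2 to 6 S-phase, 12 to 15 mitotic, 11 to 15 other replication, 15 to 21 other mitotic and 5 to 7 brake genes, and 4067 to 5859 of all genes. Of these leave-outs, the one without the 0:100 library gave the fewest S-phase calls (2) and also the fewest over all genes (4067). There MCM2, MCM4, MCM7 and PCNA no longer passed. By library totals, slopes of genes without a call turned negative for MCM3 (-0.22), MCM6 (-0.15), GINS2 (-0.17), AURKA (-0.29), BUB1 (-0.063), BUB1B (-0.26) and CENPA (-0.39). BUB1B was also negative with 2 against 2 (-0.019) and ran from -0.52 (without 100:0) to 0.48 when single libraries were left out. CENPA was negative with the length trend removed (-0.23), with no read filter (-0.0084) and where all 5 libraries needed 10 reads (-0.034), and ran from -0.047 (without 75:25) to 0.20 over the leave-outs, also negative without 25:75 (-0.022). PRC1 was positive with 2 against 2 (0.033) and from protein-coding transcripts alone (0.0038), and ran from -0.13 to 0.22, the last without 0:100. The cause of these changes was not tested. Library totals moved 20 of 37 pure-library ratios beyond their counting interval. No member passed for isoform usage in any setting. No paired analysis was possible because each ratio had 1 library. Members with few reads, such as KIF11, are limited by depth.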

Other observations

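Genes of a list of cell-cycle brakes and DREAM subunits, LIN9, LIN37 and LIN54 among the latter, moved in both directions. Of 13 genes in this list 12 were tested, and 8 (66.7%) passed the edgeR test, against 45.8% of all tested genes. Toward HCC827 5 rose (41.7%) and 3 fell (25%), against 23.5 and 22.3% of all tested genes. Leaving out single libraries gave 5 to 7 calls. CDKN1A, which encodes the CDK inhibitor p21, fell in order through 101, 69.3, 65.5, 48.6 and 25.7 CPM. Its slope was -1.67 ± 0.21 (edgeR adjusted p = 4.09e-05) and it passed under every alternative run. CDKN1C, which encodes p57, fell from 68.1 to 38.7 CPM (-0.74 ± 0.19, edgeR adjusted p = 0.00591), and RBL1, which encodes the DREAM subunit p107, from 11.5 to 4.84 CPM (-1.40 ± 0.42, adjusted p = 0.0148). RB1, the retinoblastoma gene, rose from 6.19 to 19.7 CPM (1.85 ± 0.35, edgeR adjusted p = 0.000883), also under every alternative run. LIN37 (1.89 ± 0.68, edgeR adjusted p = 0.0364), a DREAM subunit, and BTG2 (1.41 ± 0.53, adjusted p = 0.0427), an antiproliferative gene, rested on 3 and 7 reads in the 100:0 library and 14 and 22 in the 0:100 library, and neither passed without the 100:0 library (slopes of 1.04 and 0.86). CDKN1C did not pass without the 100:0 library (-0.38), nor RBL1 without the 0:100 library (-1.25). LIN37 also failed to pass without the 75:25 (2.13) or 25:75 (1.68) library, and BTG2 without the 50:50 (1.42), 25:75 (1.51) or 0:100 (1.43) library.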
